A study of Neurospora crassa with 10 samples.

Results

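The 4 samples described here are the 2 cultures of *Neurospora crassa* lit for 240 min and the 2 cultures kept in the dark, out of the 10 samples of an RNA-seq time course (dark and 15, 60, 120 or 240 min of light, 2 samples each). They were chosen by their labelled time of light, and each 240 min culture was set against the dark culture with the same replicate number. The 240 min samples and the dark samples were both mycelia of the wild-type strain FGSC2489. All were shaken liquid cultures that had spent 24 hr in darkness, and the 240 min cultures were then lit with white light of 1200 lux. A sample was 1 culture flask of its own, so a replicate holds 1 culture at 240 min and 1 in the dark. Within a replicate the number of cultures therefore gives no spread, and a culture that differed for any reason cannot be told apart from the effect of the light. Polyadenylated RNA was prepared on oligo-dT cellulose in replicate 1 and with a magnetic bead kit in replicate 2. Replicate 2 was also sequenced less deeply, with the fewest reads in its 240 min sample, so preparation, depth and replicate number cannot be told apart. Values are FPKM, mapped fragments scaled to transcript length and to the total mapped, and were used for 9728 genes, of which 7688 had a mean above 1 at 1 or more time points and were tested.

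*N. crassa* senses blue light mainly through the White Collar Complex, a pair of transcription factors of which White Collar-1 binds a flavin and is itself the photoreceptor. The activated complex turns on early genes, among them *vvd*, whose photoreceptor protein dampens the complex again, the clock gene *frq*, and the genes of carotenoid synthesis. Light also promotes conidiation, the making of the orange asexual spores, and later responses reach metabolism, the cell wall and ribosome synthesis. At 240 min a culture is past the early peak, and the samples show what remained of it and what had followed.

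The 2 cultures at 240 min differed from each other more than the 2 dark cultures did. Expressed genes whose values differed 2-fold or more between replicates numbered 3451 at 240 min and 599 in the dark. The log2 ratio of 240 min to dark, log2((FPKM at 240 min + 1)/(FPKM in dark + 1)), was computed in each replicate. Across the 7688 genes the ratios of the replicates had a Pearson correlation of -0.10. It was 0.87 at 15 min, 0.92 at 60 min and 0.92 at 120 min. These are correlations across genes, which are not independent replicates, and each replicate has its own dark sample, so the points of a replicate share its preparation and depth. Genes that were 2-fold or more apart from the dark in opposite directions numbered 251 at 240 min and 1 at each of 15, 60 and 120 min. Set against its own 120 min sample, 641 genes were 2-fold or more apart at 240 min in replicate 1 and 2683 in replicate 2. It was thus replicate 2 in which the profile moved most between 120 and 240 min. The median ratio of all expressed genes was -0.04 in replicate 1 and -0.26 in replicate 2, and directions in replicate 2 have to be read against that shift.

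**Figure D1:**
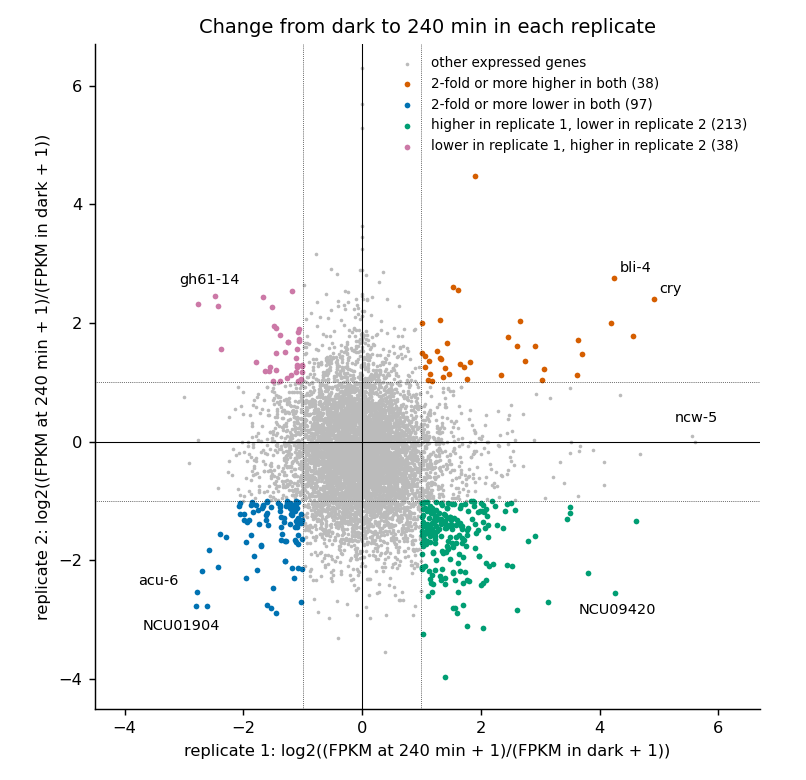
Log2 ratio of 240 min to dark in replicate 1 (horizontal) and replicate 2 (vertical) for each of the 7688 expressed genes, with the 2-fold limits as dotted lines. The 213 genes at the lower right, 2-fold or more higher in replicate 1 and lower in replicate 2, outnumber the 38 genes that were 2-fold or more higher in both replicates at the upper right.

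The label of mycelium was set beside marker genes, which do not settle it. The genes *tef-1* (elongation factor 1-alpha) and *gpd-1* (glyceraldehyde-3-phosphate dehydrogenase) were abundant in every sample. They are broadly used genes of growing hyphae, so their abundance is no test of the label. The level of *tef-1* was 4425 and 4395 FPKM at 240 min, against 8890.3 and 7729 in the dark, and that of *gpd-1* was 9519 and 8999 FPKM at 240 min, against 14156 and 14369 in the dark. Of the markers of other structures, *con-13* of conidia had 0.114 and 0 FPKM at 240 min, against 0.0640 and 0 in the dark. The gene of the abundant perithecial protein, *app*, had 0.125 and 0.111 FPKM at 240 min, against 0.0350 and 0 in the dark, and the pheromone receptor gene *pre-2* had 0.151 and 0.363 FPKM at 240 min, against 0.118 and 0.109 in the dark. These 3 markers were at or near 0 in all 4 samples, but they are 3 of 12 markers of other structures. Of the 5 sexual markers the other 3 were expressed, and the summed level of the list was 218 and 148 FPKM at 240 min, against 192 and 387 FPKM in the dark. The pheromone gene *ccg-4* made up most of it, with 157 and 122 FPKM at 240 min, against 149 and 354 in the dark, a fall in replicate 2 only (adjusted p = 3.05e-04). The ascus development gene *asd-1* had 37.3 and 24.5 FPKM at 240 min, against 40.5 and 30.43 in the dark, called only in replicate 2 (adjusted p = 0.0676). The mating response gene *poi-2* had 23.4 and 1.31 FPKM at 240 min, against 2.74 and 2.06 in the dark, a rise in replicate 1 and a fall in replicate 2 (adjusted p = 3.86e-05 and 0.0189). The conidial markers other than *con-13* were expressed too. In replicate 1, where 31.9% of all genes rose, all 6 that could be tested rose. In replicate 2, where 24.3% of all genes rose and 49.7% fell, 2 rose and 2 fell. The difference between replicates was positive for 4 of the 6 and negative for 0. The median log2 ratios of these markers were 2.09 and 0.16. Their summed level was 32889 and 1433 FPKM at 240 min, against 3589.6 and 2089 FPKM in the dark. Most of this was *ccg-13*, a clock-controlled gene with a BYS1 domain, which had 32318 and 1321 FPKM at 240 min in replicates 1 and 2, against 3468 and 1991 FPKM in the dark. The lower sum in replicate 2 followed the fall of this gene. In whole cultures a change in the number of cells of a kind and a change in RNA per cell cannot be told apart, and the part of conidial and sexual cells in the results below was not tested.

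Which genes differed between 240 min and dark over both replicates was tested with limma, with 1 mean per time point over all 10 samples. At an adjusted p of 0.2 or less, 25 genes rose (0.325% of those tested) and 81 fell (1.05%). The rises included *bli-4*, *cry*, *al-1* and *cao-2*, and the falls *acu-6*, *ad-4*, *tca-15* and the amino acid permease gene *aap-8*. All 106 called genes had the same direction in both replicates. With the replicate number as a block, which takes up the lasting difference between replicates, 393 genes rose (5.11%) and 1155 fell (15%), and the 106 genes were among them. When the adjustment ran over this comparison alone, without the other light times, 2 (0.026%) and 6 (0.078%) were called. These counts depended on single libraries. Without the 240 min sample of replicate 1, limma called 670 genes higher and 2119 lower, and without that of replicate 2 it called 1067 higher and 904 lower. Without the dark sample of replicate 1 or of replicate 2 it called 0 genes, with 283 and 253 genes at an unadjusted p under 0.05.

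Each replicate was then tested by itself in a fit in which the 2 samples at 240 min had separate means and the spread came from the 4 pairs of samples at the earlier time points. Replicate 1 had 2454 genes higher (31.9%) and 2767 lower (36%) at 240 min than in the dark. Replicate 2 had 1867 higher (24.3%) and 3819 lower (49.7%). At an adjusted p of 0.05 or less the counts were 1812 and 2045 in replicate 1 and 1376 and 3154 in replicate 2. Genes called in both replicates were higher in both in 436 cases (5.67%) and lower in both in 1322 (17.2%). They were higher in replicate 1 and lower in replicate 2 in 1424 (18.5%) and the reverse in 762 (9.91%). The change in replicate 1 minus the change in replicate 2 was positive for 3527 genes (45.9%) and negative for 2369 (30.8%). In this fit the lasting offset between replicates was estimated over the earlier pairs, so a fitted difference can depart from that of the 2 ratios. Such a call says that a culture at 240 min lay outside the spread of the other time points, and its adjusted p assumes that a single culture varies as those did. When all samples were scaled to the same median, 49.5% of the calls in replicate 2 were rises, against 32.8% as deposited. The share in replicate 1 was 45.4% with that scaling, against 47% as deposited. In what follows "rose" and "fell" in a replicate mean an adjusted p of 0.2 or less in that replicate's fit.

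Of all expressed genes, 38 were 2-fold or more higher at 240 min in both replicates (0.494%) and 97 were lower (1.26%). Taken by itself, replicate 1 had 625 genes 2-fold or more higher (8.13%) and 569 lower (7.4%). Replicate 2 had 479 higher (6.23%) and 1333 lower (17.3%). The largest shared rise, judged by the smaller of the 2 ratios, was that of *bli-4* (NCU08699), a blue light-induced gene, with 44.2 and 15.02 FPKM at 240 min in replicates 1 and 2, against 1.39 and 1.36 FPKM in the dark. Both lit cultures lay above both dark cultures, with log2 ratios of 4.24 and 2.77. In the fit of both replicates its log2 change was 3.50 (SE 0.46, adjusted p = 0.0339), the lowest adjusted p among the rises named here. The rise was still larger in replicate 1, by 1.46 (SE 0.12) on the log2 scale (adjusted p = 9.02e-05). The cryptochrome gene *cry* (NCU00582), whose protein is a blue-light flavoprotein of the DASH type, had 81.9 and 9.52 FPKM at 240 min in replicates 1 and 2, against 1.76 and 0.996 FPKM in the dark. It rose in both replicates but to very different levels, and its log2 change over both was 3.65 (SE 0.92, adjusted p = 0.158).

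A pair of carotenoid genes stood among the 10 largest shared rises. The phytoene desaturase gene *al-1* had 30.96 and 8.18 FPKM at 240 min, against 4.07 and 1.25 in the dark, which is a log2 change of 2.34 (SE 0.64, adjusted p = 0.185). The gene of the torulene-cleaving oxygenase, *cao-2*, had 80.9 and 36.3 FPKM at 240 min, against 13.9 and 10.03 in the dark, which is a log2 change of 2.11 (SE 0.48, adjusted p = 0.132). Both were higher in the 2 lit cultures than in the 2 dark cultures. The gene *gh54-1* (NCU09775), which encodes an alpha-N-arabinofuranosidase that removes arabinose from plant polysaccharides, had 212 and 40.8 FPKM at 240 min, against 10.7 and 9.40 in the dark (log2 change 3.10, SE 0.67, adjusted p = 0.117). A sugar isomerase gene, NCU10063, had 19.97 and 15.5 FPKM at 240 min, against 1.77 and 4.38 in the dark (log2 change 2.27, SE 0.48, adjusted p = 0.11). Again the lit and dark values did not overlap. The other 4 genes of the 10 largest shared rises had no assigned function. NCU08173 had 8.70 and 15.6 FPKM at 240 min, against 2.18 and 1.81 in the dark, and its adjusted p was 0.0587. NCU10641 had 80.6 and 14.2 FPKM at 240 min, against 2.46 and 3.41 in the dark, and NCU05751 had 32.96 and 7.14 FPKM at 240 min, against 1.74 and 1.48 in the dark. NCU10278 had 5.21 and 21.25 FPKM at 240 min, against 0.654 and 0 in the dark, where it was listed at 0 in replicate 2. NCU08173 and NCU10278 were higher in the lit culture of replicate 2 than in that of replicate 1, the other 8 of the 10 in that of replicate 1.

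Among the 10 largest shared falls the replicates were close to each other for several genes. The gene with the largest, NCU01904, encodes a 2-deoxy-D-gluconate 3-dehydrogenase and had 6.73 and 7.19 FPKM at 240 min in replicates 1 and 2, against 52.7 and 55.1 FPKM in the dark. Its ratios were -2.80 and -2.78, its change over both replicates was -2.79 (SE 0.30, adjusted p = 0.0158), and the difference between replicates was 0.13 (SE 0.15, adjusted p = 0.482). The phosphoenolpyruvate carboxykinase gene *acu-6* (NCU09873), whose enzyme opens gluconeogenesis, had 15.7 and 14.9 FPKM at 240 min in replicates 1 and 2, against 113 and 91.1 FPKM in the dark. Its log2 change was -2.65 (SE 0.30, adjusted p = 0.018). Both lit cultures lay far below both dark cultures for these genes, while the 2 lit cultures lay close together. NCU04963, a high-affinity glucose transporter gene, had 2.70 and 2.34 FPKM at 240 min, against 18.8 and 13.42 in the dark (log2 change -2.26, SE 0.40, adjusted p = 0.0681).

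Genes of lipid and purine metabolism were also in this group. The fatty acid synthase beta subunit gene *cel-2* had 7.64 and 5.25 FPKM at 240 min, against 50.8 and 21.2 in the dark (log2 change -2.21, SE 0.57, adjusted p = 0.169). The fatty acid elongase gene NCU08976 had 9.95 and 10.2 FPKM at 240 min, against 37.8 and 41.5 in the dark (log2 change -1.87, SE 0.29, adjusted p = 0.0504). The adenylosuccinate lyase gene *ad-4*, which acts late in purine synthesis, had 62.3 and 73.4 FPKM at 240 min, against 206 and 248 in the dark (log2 change -1.73, SE 0.32, adjusted p = 0.0762). None of these 3 had overlapping lit and dark values, and the difference between replicates passed the threshold only for *cel-2* (adjusted p = 0.0555). The gene *gcy-1*, annotated as Gld1, had 70.3 and 37.4 FPKM at 240 min, against 241 and 170.5 in the dark (adjusted p = 0.114). The remaining 3 of the 10 falls, NCU09506, NCU05126 and NCU04909, encode proteins of unknown function and had log2 changes of -2.70, -2.44 and -2.13. All 20 genes of the shared lists were called in the fit of both replicates and with the block. They were picked by their ratios in these same samples. The calls, the adjusted p given with them and the separation of lit from dark values are therefore not independent of the choice.

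**Figure D2:**
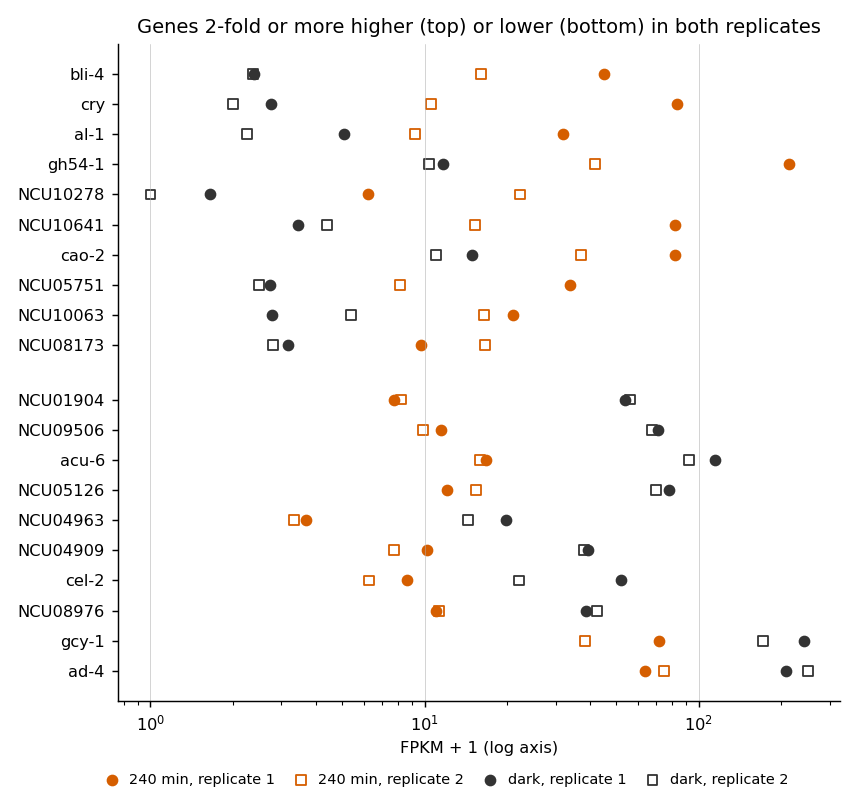
FPKM + 1 on a log axis in the 4 samples for the 10 largest shared rises (top) and 10 largest shared falls (bottom), ranked by the smaller of the 2 log2 ratios. Orange marks 240 min and black marks dark, with filled circles for replicate 1 and open squares for replicate 2. In each row both orange symbols lie on the same side of both black ones, and among the falls they nearly coincide for NCU01904, *acu-6* and NCU08976. The genes were picked by these values, so the separation is not independent of the choice.

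What was left of the early light response at 240 min was asked of the photoreceptor and clock genes. Of 7 tested, 6 rose in replicate 1 and 0 fell, and 4 rose and 1 fell in replicate 2. Their median ratios were 1.36 and 0.22. For all genes the shares were 31.9% up and 36% down in replicate 1, and 24.3% up and 49.7% down in replicate 2. The gene *vvd* had 70.6 and 7.84 FPKM at 240 min in replicates 1 and 2, against 4.52 and 2.18 FPKM in the dark. It was higher in each lit culture than in either dark culture, with ratios of 3.70 and 1.48, but over both replicates without the block the adjusted p was 0.282, and with it 0.045. The clock gene *frq*, whose protein closes the feedback loop of the circadian clock, had 56.02 and 4.28 FPKM at 240 min in replicates 1 and 2, against 10.62 and 2.71 FPKM in the dark. It rose in both replicates (adjusted p = 7.61e-05 and 0.0427), yet the lit value of replicate 2 was below the dark value of replicate 1, so the groups overlapped. The photoreceptor gene *wc-1* had 9.56 and 1.73 FPKM at 240 min, against 4.88 and 1.34 in the dark, a rise in both that was small in replicate 2 (ratio 0.22, adjusted p = 0.00454 in replicate 1 and 0.149 in replicate 2). Its partner *wc-2* was near its dark level in both, with 12.9 and 10.42 FPKM at 240 min, against 12 and 12.8 in the dark, and was called in neither. The opsin gene *nop-1* split the cultures, with 7.04 and 0.243 FPKM at 240 min, against 2.13 and 2.18 in the dark. It rose in replicate 1 and fell in replicate 2 (adjusted p = 6.38e-04 and 6.45e-04), and its difference between replicates was 2.49 (SE 0.19). The phytochrome gene *phy-1* rose in replicate 1 and was not called in replicate 2, with 7.61 and 2.32 FPKM at 240 min, against 4.70 and 2.73 in the dark. The level of *phy-2* was under 1 FPKM in all 4 samples.

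In the carotenoid list, *al-2*, whose enzyme makes phytoene and cyclizes its products, had 169.7 and 16.9 FPKM at 240 min in replicates 1 and 2, against 18.1 and 9.81 FPKM in the dark. It rose in both replicates (adjusted p = 1.33e-05 and 8.30e-04), but the lit culture of replicate 2 stayed below the dark culture of replicate 1. The prenyl transferase gene *al-3* had 5.71 and 3.06 FPKM at 240 min, against 5.06 and 4.24 in the dark. It fell in replicate 2 (adjusted p = 0.0205), as the only one of the list, and rose by little in replicate 1 (ratio 0.15, adjusted p = 0.147). Over the 5 genes the median ratios were 2.46 in replicate 1, the value of *cao-2*, and 1.68 in replicate 2, the value of *cao-1*. In all, 3 of the 5 rose in both replicates, as did 5.67% of all genes. The values of *cao-1*, 5.18 and 29.98 FPKM at 240 min, against 13.7 and 8.66 in the dark, are the same in all 10 samples as those of its neighbour *sub-2*, so the 2 loci cannot be told apart, which of them moved is uncertain, and the median of replicate 2 rests on it.

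Genes that the study named as light-induced were mostly still up in replicate 1, although a list chosen by the study on these samples is not independent evidence of a direction. Of 14, 12 rose and 2 fell in replicate 1, against 7 and 4 in replicate 2. Shares of all genes were 31.9% up and 36% down in replicate 1, and 24.3% up and 49.7% down in replicate 2. The blue light-induced gene *bli-3* had 206 and 34.8 FPKM at 240 min in replicates 1 and 2, against 24.4 and 16.3 FPKM in the dark, and rose in both (ratios 3.03 and 1.05). The clock-controlled gene *ccg-1*, an abundant transcript, had 7323 and 4489 FPKM at 240 min, against 2357 and 2970.5 in the dark, and also rose in both (adjusted p = 0.00386 and 0.0513). The conidiation gene *con-10* had 4.26 and 15.2 FPKM at 240 min, against 0.944 and 4.11 in the dark, and rose in both. Its ratios were 1.44 and 1.67, the difference between replicates was -0.02 (SE 0.31, adjusted p = 0.958), and the lit and dark values nearly met, with replicate 2 higher in both conditions. Another conidiation gene, *con-6*, had 98.3 and 10.2 FPKM at 240 min, against 13.8 and 3.36 in the dark, and was called only in replicate 1 (adjusted p = 0.00259 and 0.304). The catalase gene *cat-1*, whose enzyme breaks down hydrogen peroxide and is rich in conidia, had 129.8 and 17.3 FPKM at 240 min, against 69.3 and 44.3 in the dark. It rose in replicate 1 and fell in replicate 2 (difference 2.13, SE 0.13, adjusted p = 2.55e-05). The transcription factor genes *csp-1* and *sub-1* were below the dark in replicate 1. The level of *csp-1* was 26.2 and 27.01 FPKM at 240 min, against 46.4 and 35.4 in the dark, a fall in both replicates (adjusted p = 8.02e-04 and 0.0136) that in replicate 2 changed sign under quantile normalization. The level of *sub-1* was 5.49 and 11.4 FPKM at 240 min, against 9.62 and 9.75 in the dark, a fall in replicate 1 and a small rise in replicate 2 (adjusted p = 0.00162 and 0.0904).

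Transcription factor genes that are targets of the White Collar Complex moved in both directions in both cultures. In replicate 1 the shares were near those of all genes. In replicate 2 the share that fell was near that of all genes, and the share that rose was above it. Of 27, 9 rose and 11 fell in replicate 1, and 11 rose and 13 fell in replicate 2. For comparison, 31.9% of all genes rose and 36% fell in replicate 1, and 24.3% rose and 49.7% fell in replicate 2. Of the list, 6 rose and 8 fell in both replicates, where 5.67% of all genes rose in both and 17.2% fell in both. The limma fit over both replicates called 0 of the list, and with the block it called 5 higher and 8 lower. The most abundant member, NCU01871, had 170.4 and 108 FPKM at 240 min in replicates 1 and 2, against 267 and 307 FPKM in the dark. The gene of the carbon catabolite repressor CRE-1, *cre-1*, had 16.5 and 15.5 FPKM at 240 min, against 42.9 and 25.9 in the dark. Both were below their dark values in each replicate, with log2 ratios of -0.64 and -1.50 for NCU01871 and -1.33 and -0.70 for *cre-1*. Their adjusted p with the block was 0.0628 and 0.0418, and without it 0.244 and 0.305. The C2H2 factor gene NCU03184 had 42.6 and 18.9 FPKM at 240 min, against 58.6 and 47.2 in the dark, and it too fell in each replicate (adjusted p = 0.0425 and 3.88e-04).

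Where the cultures parted was described by the genes 2-fold or more from the dark in opposite directions, 213 higher in replicate 1 and lower in replicate 2 (2.77%) and 38 the reverse (0.494%). They were picked by these ratios, so the difference tests given with them are not independent of the choice. Small heat shock proteins, chaperones that hold unfolded proteins, were in the first set. NCU09420, of the hsp20 family, had 1316 and 8.54 FPKM at 240 min in replicates 1 and 2, against 67.9 and 54.8 FPKM in the dark. The lit culture of replicate 1 was the highest of the 4 and that of replicate 2 the lowest, with ratios of 4.26 and -2.55 and a difference of 6.74 (SE 0.14, adjusted p = 4.18e-06). NCU07232, heat shock protein 30, had 2199 and 30.9 FPKM at 240 min in replicates 1 and 2, against 359.9 and 226 FPKM in the dark, again with replicate 1 highest and replicate 2 lowest at 240 min. NCU04639, similar to Nce102 of budding yeast, a membrane protein first described in the export of proteins without a signal sequence, had 486 and 9.22 FPKM at 240 min, against 117 and 89.2 in the dark. Its difference between replicates was 5.38 (SE 0.17). Of the genes of unknown function in this set, NCU01063 had 1617 and 23.3 FPKM at 240 min, against 114 and 111 in the dark. NCU09277 had 111 and 1.45 FPKM at 240 min, against 41.7 and 37.2 in the dark, and NCU06506 had 163 and 3.53 FPKM at 240 min, against 46.95 and 37.9 in the dark. For these 3 the 2 dark cultures lay close together and the lit cultures lay on either side of them. NCU08438 had 52.9 and 0 FPKM at 240 min, against 5.14 and 5.53 in the dark, and so was listed at 0 in the lit culture of replicate 2. The gene of the GTP-binding protein ypt4, NCU01647, had 58.6 and 3.91 FPKM at 240 min, against 1.43 and 11.4 in the dark. Its dark values differed widely, and it rose in replicate 1 (adjusted p = 0.00139) but was not called in replicate 2 (adjusted p = 0.317).

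The reverse set held genes of secreted enzymes that attack plant cell walls. The GH61 proteins are oxidative enzymes that cut cellulose, and *gh61-14* had 3.14 and 125 FPKM at 240 min in replicates 1 and 2, against 22.1 and 21.9 FPKM in the dark. In replicate 1 it was below both dark cultures and in replicate 2 above both, with ratios of -2.48 and 2.46 and a difference of -4.59 (SE 0.25, adjusted p = 1.88e-05). The same order of samples was found for *gh61-12* with 4.34 and 100.0 FPKM at 240 min, against 26.8 and 33.3 in the dark, and for *gh61-3* with 0.877 and 21.6 FPKM at 240 min, against 5.01 and 3.16 in the dark. It was also found for *ce1-4*, an acetyl xylan esterase gene, with 1.40 and 21.31 FPKM at 240 min, against 5.73 and 4.79 in the dark. Other members were metabolic or proteolytic. The squalene synthase gene *erg-6*, which commits isoprenoids to sterols, had 6.46 and 61.1 FPKM at 240 min, against 20.4 and 11.9 in the dark, and *gsl-14*, annotated as a fatty acid elongase gene, had 15.6 and 159 FPKM at 240 min, against 36.6 and 26.3 in the dark. The aspartic protease gene NCU02059 (endothiapepsin) had 3.74 and 38.5 FPKM at 240 min, against 11.9 and 9.52 in the dark, and NCU01380, of unknown function, had 3.87 and 57.3 FPKM at 240 min, against 32.2 and 10.7 in the dark. All 8 were lower in replicate 1 and higher in replicate 2 than in either dark culture.

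**Figure D3:**
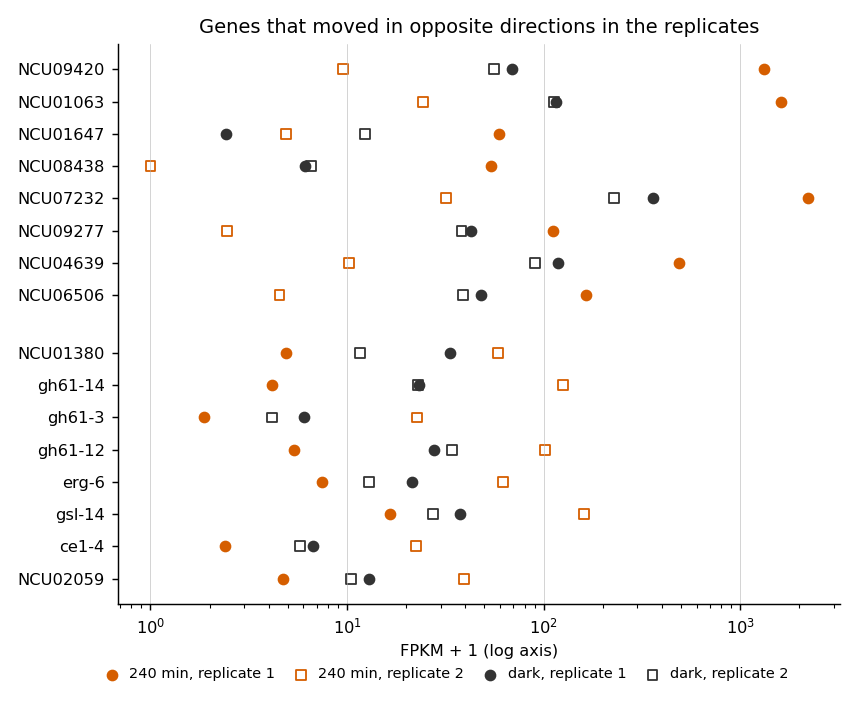
FPKM + 1 on a log axis in the 4 samples for the 8 genes with the largest positive (top) and the 8 with the largest negative (bottom) difference of the log2 ratios between replicates. Orange marks 240 min and black marks dark, with filled circles for replicate 1 and open squares for replicate 2. In the upper group the orange circle lies right of its black circle and the orange square left of its black square, and in the lower group the 2 orange symbols have changed sides.

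The 5 largest rises and 5 largest falls of each replicate, among genes above 10 FPKM in a sample of it, held 4 of the shared changes given above (*cry*, NCU10278, NCU01904 and *acu-6*). In replicate 1 the largest rise of a gene detected in the dark was that of *ncw-5*, a non-anchored cell wall protein gene, with 7359 and 181 FPKM at 240 min in replicates 1 and 2, against 154 and 169.9 FPKM in the dark. It rose in replicate 1 (ratio 5.56, adjusted p = 9.23e-06) and lay at its dark level in replicate 2 (ratio 0.09, adjusted p = 0.957), a difference of 5.63 (SE 0.17, adjusted p = 5.99e-06). At 60 and 120 min the gene had been high in both replicates, with 935 and 1272 FPKM at 60 min and 2507 and 3023 FPKM at 120 min. The chitin deacetylase gene *ce4-4*, whose enzyme turns chitin into chitosan, had 49.4 and 0.236 FPKM at 240 min, against 0.966 and 0.424 in the dark, and rose in replicate 1 (adjusted p = 2.91e-05) but not in replicate 2 (adjusted p = 0.254). NCU00149, of unknown function, was listed at 0 in both dark cultures and at 240 min in replicate 2, and had 48.02 FPKM at 240 min in replicate 1. It had 29.2 and 18.2 FPKM at 120 min, so it had been present in both time courses before. Among the largest falls of replicate 1 were NCU05495, with the sugar-binding CVNH domain, which had 140.3 and 2051 FPKM at 240 min, against 1134 and 1222 in the dark, and NCU05788, of unknown function. The level of NCU05788 was 3.98 and 38.3 FPKM at 240 min, against 36.7 and 49.5 in the dark. Replicate 2 rose for NCU05495 (adjusted p = 0.00817), and its call for NCU05788 (adjusted p = 0.123) changed sign under both scalings tried.

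In replicate 2 the 3 largest rises were of loci listed at 0 in all 9 other samples of the time course. NCU12011 had 77.7 FPKM, NCU01383 had 50.3 FPKM and NCU10125 had 38.1 FPKM in that sample. No function is assigned to these loci, and a fold change against 0 is not given. In all, 43 loci were listed at 0 in both dark cultures and the lit culture of replicate 1 but above 1 FPKM in the lit culture of replicate 2, at a median of 1.68 FPKM, and 23 of them were at 0 in all 9 other samples. The converse held for 7 loci. The largest falls of replicate 2 included NCU00322 and NCU04266, both of unknown function. NCU00322 had 1592 and 64.7 FPKM at 240 min, against 778 and 620.4 in the dark, and NCU04266 had 159.8 and 68.1 FPKM at 240 min, against 212 and 685 in the dark. NCU00322 rose in replicate 1 (adjusted p = 7.06e-04), and the fall of NCU04266 started from a dark value of replicate 2 that was itself above that of replicate 1. NCU01957, annotated as AR2, had 22.6 and 3.81 FPKM at 240 min, against 17.1 and 55.3 in the dark, and its 2 dark values differed as well.

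**Figure D4:**
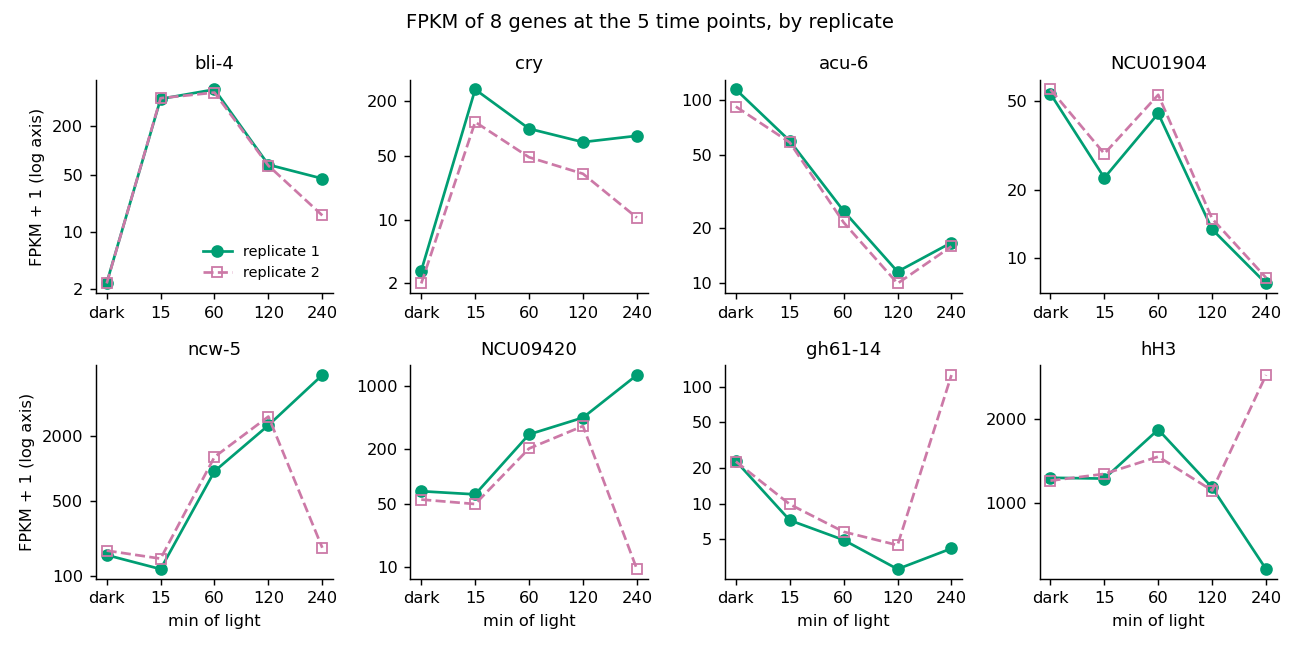
FPKM + 1 on a log axis at the 5 time points in replicate 1 (circles, solid line) and replicate 2 (squares, dashed line) for 8 of the genes described. The lines stay together at 240 min for *acu-6* and NCU01904, are apart from 15 min on for *cry*, and part after 120 min for *bli-4*, *ncw-5*, NCU09420, *gh61-14* and the histone H3 gene *hH3*.

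Genes of the energy metabolism of mitochondria mostly fell in replicate 1, and in replicate 2 their falls were fewer when the samples were scaled. Counts of lists are to be read against all genes, of which 31.9% rose and 36% fell in replicate 1, and 24.3% rose and 49.7% fell in replicate 2. With median scaling, 2779 of all genes rose and 2838 fell in replicate 2, and with quantile normalization 2662 and 3037. All 14 genes of the tricarboxylic acid cycle fell in replicate 1, with a median ratio of -1.10. In replicate 2, 12 fell and 2 rose, with a median of -0.73, and there were 2 rises and 8 falls with median scaling and 2 and 8 with quantile normalization. The malate dehydrogenase gene *tca-15* had 95.3 and 213 FPKM at 240 min in replicates 1 and 2, against 400.3 and 498 FPKM in the dark, and was the only member called over both replicates (log2 change -1.64, SE 0.45, adjusted p = 0.185). With the block, 11 of the 14 fell and 0 rose. The gene *tca-11*, a membrane subunit of succinate dehydrogenase, had 237 and 111 FPKM at 240 min, against 302 and 504 in the dark, and fell further in replicate 2 (difference 1.85, SE 0.14). All 10 ATP synthase genes fell in replicate 1 (median -1.38), while 8 fell and 1 rose in replicate 2 (median -0.43), which became 2 rises and 5 falls with median scaling and 2 and 4 with quantile normalization. The beta subunit gene *atp-2* had 564 and 973 FPKM at 240 min, against 1542 and 1538 in the dark, with both lit cultures below both dark cultures. Of 8 genes of complexes III and IV, 8 fell in replicate 1 and 6 in replicate 2, where 0 rose. In replicate 2 these became 2 rises and 2 falls with median scaling and 1 and 2 with quantile normalization. Of 29 genes of complex I, 22 fell in replicate 1 and 23 in replicate 2, where 4 rose. Scaling left 18 falls in replicate 2 under either method. Complex I had medians of -0.55 and -0.93, the lower one in replicate 2. Its gene *nuo14* (NCU09299, one of a pair of loci with that symbol) had 90.2 and 51.2 FPKM at 240 min, against 165 and 193 in the dark (log2 change over both replicates -1.38, SE 0.36, adjusted p = 0.167). Both scalings left the medians of these 4 lists below 0 in both replicates, although in replicate 2 that of ATP synthase came to -0.12 and -0.04 and that of complexes III and IV to -0.13 and -0.05 with median scaling and quantile normalization.

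Genes of translation separated the cultures. Of 76 cytoplasmic ribosomal protein genes (*crp*), 70 fell and 1 rose in replicate 1, and 32 fell and 23 rose in replicate 2. Their medians were -0.93 and -0.29, the second of which turned to 0.03 with median scaling and 0.06 with quantile normalization. Without the dark sample of replicate 2, 35 rose in replicate 2. The difference between replicates was negative for 51 genes, which is a deeper fall in replicate 1, and positive for 8. The gene of the acidic protein P2, *crp-71*, had 1527 and 9863 FPKM at 240 min, against 2743 and 11081 in the dark, and *crp-7* had 3677 and 2996 FPKM at 240 min, against 4804 and 10532 in the dark. The first fell in replicate 1 only, the second fell in both and further in replicate 2, and for both the dark value of replicate 2 was far above that of replicate 1. The 58 genes of the mitochondrial ribosome showed the same split, with 53 falls and 1 rise in replicate 1 against 19 falls and 18 rises in replicate 2. Their medians were -0.82 and -0.05, the second above 0 with either scaling. Ribosome biogenesis genes (*rbg*) fell in 23 of 32 cases in replicate 1 and rose in 1. In replicate 2, 12 rose and 11 fell, and the median of -0.02 became positive with either scaling. The gene of nucleolar protein nop-58, *rbg-18*, had 42.5 and 139 FPKM at 240 min in replicates 1 and 2, against 73.6 and 46.8 FPKM in the dark. It fell below both dark cultures in replicate 1 and rose above both in replicate 2 (difference -2.43, SE 0.13, adjusted p = 1.82e-05).

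Histone genes, whose products package DNA, moved in both directions in replicate 2. All 6 fell in replicate 1, where 36% of all genes fell. In replicate 2, 3 fell and 2 rose, not far from the 49.7% and 24.3% of all genes. The histone H3 gene *hH3* had 575 and 2888 FPKM at 240 min in replicates 1 and 2, against 1229.7 and 1201 FPKM in the dark. Its lit culture of replicate 2 was the highest of the 4 and that of replicate 1 the lowest (difference -2.41, SE 0.20, adjusted p = 8.51e-05). The histone H4 gene *hH4-1* had 172 and 497 FPKM at 240 min, against 388 and 359.9 in the dark, and so the same order of samples. The genes of histones H1, H2A and H2B fell in both cultures. The level of *hH2A* was 548 and 921 FPKM at 240 min, against 1388 and 1715 in the dark, and with the block its adjusted p was 0.0441, without it 0.265. Nuclear pore genes fell in 22 of 26 cases in replicate 1 and 17 in replicate 2, where the median of -0.33 turned to 0.02 with quantile normalization and the falls became 11 under either scaling. Proteasome genes fell in 22 of 30 in replicate 1, with a median of -0.36, where 36% of all genes fell. In replicate 2, 19 fell and 6 rose (49.7% and 24.3% of all genes), with a median of -0.49, and these became 11 rises and 14 falls with median scaling and 11 and 12 with quantile normalization, with medians of -0.18 and -0.09.

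Genes of amino acid and purine synthesis, tRNA loading and sugar storage fell in more cases in replicate 2 than in replicate 1. Of all genes, 49.7% fell in replicate 2 and 36% in replicate 1. Of 55 amino acid biosynthesis genes, 43 fell and 4 rose in replicate 2 (median -0.80). In replicate 1, 21 fell and 20 rose (median -0.07, above 0 only with quantile normalization). Both *lys-2* and *leu-1* fell over both replicates. The saccharopine dehydrogenase gene *lys-2* had 73.4 and 67.2 FPKM at 240 min, against 191 and 214 in the dark (log2 change -1.51, SE 0.31, adjusted p = 0.1), and *leu-1* of leucine synthesis had 26.2 and 23.5 FPKM at 240 min, against 68.9 and 57.8 in the dark (log2 change -1.31, SE 0.30, adjusted p = 0.132). The most abundant members differed between cultures. The ketol-acid reductoisomerase gene *ilv-2* had 156 and 608 FPKM at 240 min, against 469.8 and 442 in the dark, a fall in replicate 1 and a rise in replicate 2. The lysine synthesis gene *lys-4* had 513 and 133 FPKM at 240 min, against 501 and 445 in the dark, a fall in replicate 2 alone. With the scalings, the falls of this list in replicate 2 were 38 and 34. Aminoacyl-tRNA synthetase genes, which load amino acids onto tRNA, fell in 24 of 30 cases in replicate 2 (18 with median scaling and 17 with quantile normalization) and 14 in replicate 1. An exception was the aspartyl-tRNA synthetase gene NCU00915, which rose in both with 519.9 and 315 FPKM at 240 min, against 273 and 189 in the dark. Purine synthesis genes fell in 8 of 9 cases in replicate 2 and 4 in replicate 1. Among the amino acid permease genes, which import amino acids, *aap-8* had 52.8 and 21.5 FPKM at 240 min, against 155 and 156 in the dark, and fell in both (log2 change -2.17, SE 0.45, adjusted p = 0.107).

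Genes of trehalose and glycogen metabolism had medians of -0.18 in replicate 1 and -1.57 in replicate 2. These are the sugar stores of fungal cells. In replicate 2, 8 of 9 genes fell and 0 rose, against 6 falls and 3 rises in replicate 1. The glycogen phosphorylase gene NCU07027, whose enzyme frees glucose from glycogen, had 901 and 52.8 FPKM at 240 min in replicates 1 and 2, against 446 and 235 FPKM in the dark. It rose in replicate 1 and fell in replicate 2 (difference 3.09, SE 0.14, adjusted p = 1.25e-05). The trehalase gene *tre-2* had 94.8 and 13.2 FPKM at 240 min, against 73.04 and 44.8 in the dark, and the glycogenin gene *gnn* had 91.0 and 31.3 FPKM at 240 min, against 106 and 101 in the dark. Both fell in replicate 2, and in replicate 1 *tre-2* rose and *gnn* fell by little (ratios 0.37 and -0.22). Vacuolar ATPase genes fell in 10 of 13 cases in replicate 2 and in 4 in replicate 1. In both lists the median of replicate 2 lay below that of all genes under either scaling.

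Cell wall protein genes fell in 12 of 15 cases in replicate 2 and rose in 2, where 49.7% of all genes fell. These became 3 rises and 8 falls with median scaling and 3 and 9 with quantile normalization, and the median of -0.59 became -0.28 and -0.30. In replicate 1, 7 rose and 5 fell. Beside *ncw-5*, the gene *ncw-3* had 13126 and 2060.1 FPKM at 240 min in replicates 1 and 2, against 3085 and 3105 FPKM in the dark, and *ncw-6* had 139 and 6.78 FPKM at 240 min, against 11.4 and 16.8 in the dark. For these 3 non-anchored wall proteins the lit culture of replicate 1 was the highest of the 4 dark and 240 min samples. For *ncw-3* it was not the highest of the time course, since replicate 1 had 14252 FPKM at 60 min and 13482 FPKM at 120 min. The anchored wall protein gene *acw-3* had 3320.1 and 769 FPKM at 240 min, against 3596 and 2879 in the dark, a fall in replicate 2 with no call in replicate 1. Conidial genes moved with these in replicate 1, and *con-8* (NCU09235) had 378 and 16.6 FPKM at 240 min, against 33.8 and 42.7 in the dark. The hydrophobin gene *eas*, whose product coats conidia, had 87.0 and 69.2 FPKM at 240 min, against 71.4 and 45.7 in the dark, a rise in both (ratios 0.28 and 0.59, adjusted p = 0.0777 and 0.178).

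Genes of plant cell wall degradation had a median ratio below 0 in replicate 1 and above 0 in replicate 2, also under both scalings. Of 26 genes listed, 9 were expressed, and the filter kept genes that were high at any time point, so their counts are no measure of the whole list. Of these, 6 fell and 1 rose in replicate 1, while 7 rose and 0 fell in replicate 2. The medians were -1.49 and 1.03. The list did not hold the arabinofuranosidase gene *gh54-1* described above, which rose in both replicates (ratios 4.19 and 2.01). The xylanase gene *gh10-3* had 4.16 and 22.9 FPKM at 240 min, against 16.7 and 13.2 in the dark. The esterase D gene *ce1-2* had 13.37 and 13.5 FPKM at 240 min, against 14.7 and 12.99 in the dark, and was called in neither replicate. The cellulase genes *gh7-3* and *gh7-4* and the exoglucanase gene *gh6-1* were not expressed by this rule, and *gh6-1* had 0.142 and 0.571 FPKM at 240 min, against 0.159 and 0.342 in the dark. Of 18 chaperone genes, 4 rose and 11 fell in replicate 1, where 31.9% of all genes rose and 36% fell. In replicate 2, 8 rose and 8 fell, where 24.3% of all genes rose and 49.7% fell. The difference between replicates was positive for 5 of them, among these the small heat shock genes NCU09420 and NCU07232 described above, and negative for 12. The Hsp70 gene *hsp70-2*, the most abundant of them in the dark, had 374 and 363 FPKM at 240 min, against 1132 and 649 in the dark, a fall in both (ratios -1.59 and -0.84). The mitochondrial chaperonin gene *hsp60* had 21.4 and 74.5 FPKM at 240 min, against 52.6 and 44.6 in the dark, a fall in replicate 1 and a rise in replicate 2.

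Other lists held changes that were shared as well as changes that were not. Genes of thiamine synthesis were among the most abundant transcripts. The thiazole biosynthetic enzyme gene NCU06110 had 31311 and 12401 FPKM at 240 min, against 32086 and 27549 in the dark, a fall in replicate 2 only. The thiamine gene *nmt-1* had 11280.4 and 8074 FPKM at 240 min, against 19989 and 24600.4 in the dark, a fall in both replicates (log2 change -1.22, SE 0.34, adjusted p = 0.187). Of 16 ergosterol synthesis genes, 13 fell in replicate 1 and 9 in replicate 2, where 6 rose. The share that fell in replicate 2 was close to the 49.7% of all genes. The hydroxymethylglutaryl-CoA synthase gene *erg-13*, near the start of that pathway, had 35.99 and 41.2 FPKM at 240 min, against 126.6 and 87.7 in the dark, and fell over both (log2 change -1.43, SE 0.36, adjusted p = 0.162). All 5 genes of the glyoxylate cycle and gluconeogenesis fell in replicate 2, while 3 fell and 2 rose in replicate 1. The isocitrate lyase gene *acu-3* was one that rose in replicate 1, with 20.2 and 8.07 FPKM at 240 min, against 13.2 and 17.6 in the dark. The glutamine synthetase gene *gln-2*, of nitrogen assimilation, had 719 and 214 FPKM at 240 min, against 1211 and 1559 in the dark, and fell in both (adjusted p = 0.00787 and 7.61e-05), further in replicate 2. The glutathione transferase gene *gst-1* had 14.1 and 24.5 FPKM at 240 min, against 58.8 and 47.2 in the dark, and was the only antioxidant gene called over both replicates (log2 change -1.45, SE 0.37, adjusted p = 0.165). Enolase (*emp-7*), an abundant glycolytic transcript, had 17204 and 9314 FPKM at 240 min, against 11251 and 9704 in the dark, a rise in replicate 1 only.

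**Figure D5:**
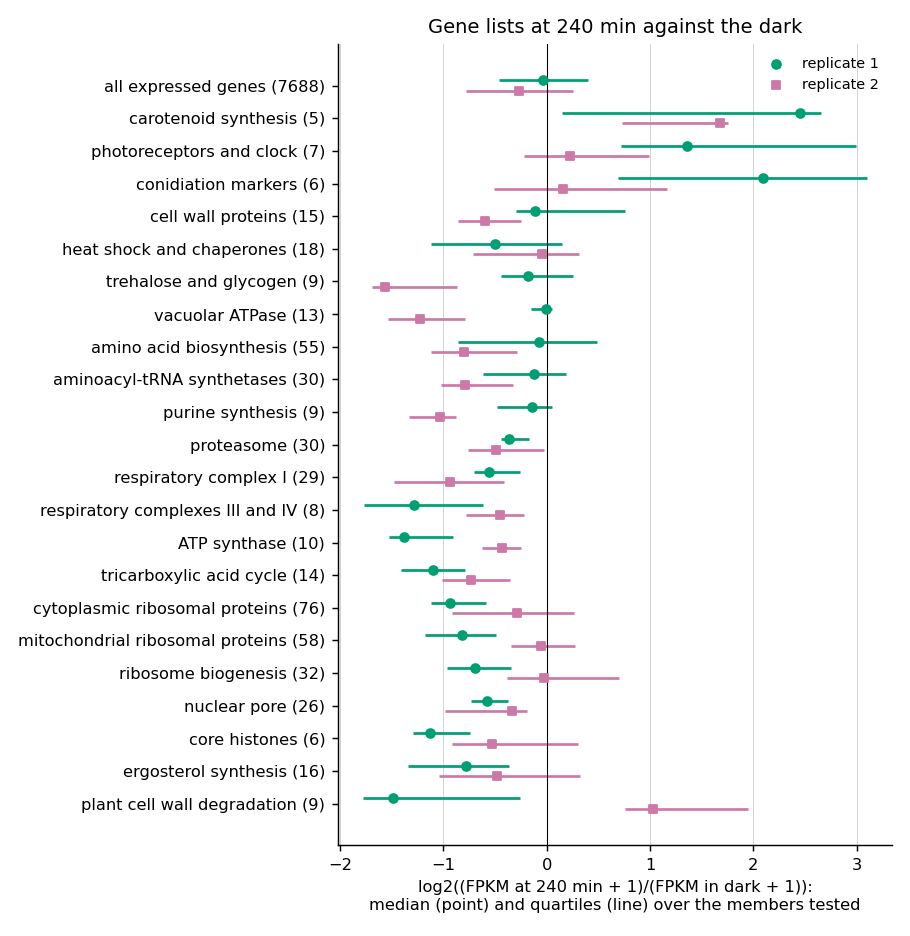
Log2 ratio of 240 min to dark for gene lists, as the median (point) and quartiles (line) over the members tested, with replicate 1 in green circles and replicate 2 in pink squares and the number of genes in brackets. Ribosomal, ATP synthase and tricarboxylic acid cycle lists lie further left in replicate 1, storage carbohydrate, vacuolar ATPase and amino acid lists further left in replicate 2, and the plant cell wall degradation list lies on opposite sides of 0.

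The 5 clusters into which the study sorted light-regulated genes were chosen on these samples, so their direction is not independent evidence. They show how each culture stood at 240 min. Of 221 genes of cluster 3, the study's late light-induced group, 205 rose and 3 fell in replicate 1, against 32 and 150 in replicate 2. The 3 falls became 5 without the dark sample of replicate 1. The medians were 1.41 and -0.88, of opposite sign also under both scalings, and 142 genes were called up in replicate 1 and down in replicate 2. Cluster 5, of light-repressed genes, had 202 falls and 3 rises among 222 genes in replicate 1 and 111 falls and 53 rises in replicate 2. Its median in replicate 2 was -0.22, against -1.04 in replicate 1, and the first of these turned to 0.07 and 0.13 with median scaling and quantile normalization. In this cluster 104 genes fell in both replicates and 0 rose in both. Over both replicates 24 of its genes were called lower, and 98 with the block. All 13 genes of cluster 1, early genes whose rise is sustained, were up in replicate 1, and 9 were up and 2 down in replicate 2. Cluster 4, which is similar, had 22 of 24 up in replicate 1, and 10 up and 9 down in replicate 2. Of 48 genes of cluster 2, whose rise is brief, 29 were up and 9 down in replicate 1, against 11 and 24 in replicate 2.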

How the data were processed

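Read processing was done by the authors. According to their methods and processing notes, reads from capped, polyadenylated RNA were aligned with TopHat2 2.0.5 to assembly 10 of the genome with annotation 10.6, and Cufflinks gave the deposited FPKM values, 1 column per sample. No read counts were used, so FPKM were tested on the log2(FPKM + 1) scale, which understates changes of low genes. limma 3.58.1 in R 4.3.3 (empirical Bayes with trend) was fitted to genes with a mean above 1 FPKM at 1 or more time points. It was tested on simulated data in which the 240 min samples had the residual spread of the earlier time points. That test therefore cannot vouch for the fits where the 240 min cultures diverged. Benjamini-Hochberg adjustment was used, with a threshold of 0.2. In the fit of both replicates the adjustment ran over genes and the 4 light times together. For the single replicates it ran over genes and both replicates together, and for the difference between replicates over genes. The fit of both replicates used 10 samples and no block. The replicate numbers pair the samples, since the labels give each number its own RNA preparation, and deviations of same-numbered samples correlated at 0.76 to 0.84 among the other time points and at 0.33 to 0.41 between 240 min and those. Members and gene lists were chosen with earlier results of these data known. Genes named were the 10 largest shared rises and falls, the 8 most divergent each way, the 5 largest changes each way in each replicate, the genes the study named, and for each list the most abundant and those called. Outside that rule *al-3*, *app*, *con-13*, *gh6-1*, *hsp60*, *ncw-6*, *phy-1*, *phy-2*, *pre-2*, *gh7-3* and *gh7-4* were chosen after their values were seen. Of all loci, 112 have values identical to another locus in all 10 samples. P-values measure the spread between these samples only. Alternatives tried were the pseudocount, filter, scaling, block, adjustment and left-out samples.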

Additional observations from a re-analysis of the deposited data

How the results depend on the processing

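The fit of both replicates was the least stable. Its 25 rises and 81 falls became 393 and 1155 with the replicate block, 2 and 6 when adjusted over the 240 min comparison alone, 99 and 131 with median scaling, 77 rises with quantile normalization and 48 rises with no filter on low values. With only the 240 min and dark samples limma called 0 and 0, with the block (248 genes at an unadjusted p under 0.05) and without it (99 genes). Leaving out 1 sample at a time gave 0 to 1067 rises and 0 to 2119 falls, the 0 from leaving out either dark sample, where the lowest adjusted p was 0.254 and 0.219. The block changed none of the 20 shared gene calls. With a filter of mean FPKM above 10, which tests fewer genes, replicate 1 had 1539 higher and 1823 lower, replicate 2 had 946 higher, the difference was positive for 2296 and negative for 1323, 249 genes were higher in both and 485 were lower in replicate 1 and higher in replicate 2. That last count was 1147 with median scaling. Changes of 2-fold or more depend on the pseudocount by construction. Shared rises numbered 92 at a pseudocount of 0.1 and 11 at 5, shared falls 58 at 5, genes higher in replicate 1 and lower in replicate 2 107 at 5, and the reverse 102 at 0.1 and 13 at 5. Shared falls were 51 with median scaling and 52 with quantile normalization, and genes lower in replicate 1 and higher in replicate 2 were 74 and 100. The rises' share of calls in the fit of both replicates was 23.6% as deposited, 43% with median scaling and 39.1% with quantile normalization. It was 59.8%, 46.9% and 49.4% for positive differences between replicates, and 32.8%, 49.5% and 46.7% for replicate 2. In replicate 2 the change of NCU05788 turned to 0.0567 and 0.0937 under these scalings, and that of *csp-1* to 0.0365 with quantile normalization; the cause was not tested. Reads per sample were not used here, so the precision that depth gives is not known.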
